A study of Homo sapiens with 18 samples.

Results

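The nuclear genes that encode subunits of the respiratory chain and of ATP synthase were followed through 6 growth settings of Saos-2, a cell line derived from a human osteosarcoma. The genes were chosen by name alone: names that begin with NDUFA, NDUFB, NDUFC, NDUFS or NDUFV and a digit, SDHA, SDHB, SDHC and SDHD, and names that begin with UQCR, with COX followed by a digit from 4 to 8, or with ATP5. After 116 pseudogene and antisense names were left out, 88 of the 50119 genes in the table remained. Of these, 36 were placed in complex I, 4 in complex II, 9 in complex III, 17 in complex IV and 19 in complex V, with NDUFA4 and its relative NDUFA4L2 counted in complex IV. The other 3 were the readthrough transcripts NDUFC2-KCTD14 and ATP5MF-PTCD1 and the noncoding NDUFA6-DT, which is transcribed away from the NDUFA6 promoter. All 88 gene positions overlapped the gene of the same identifier in GENCODE 29, which is annotated on GRCh38. COX4I2 and COX6A2 were not analysed here.

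The respiratory chain lies in the inner mitochondrial membrane. Complex I takes electrons from NADH, complex II (succinate dehydrogenase) takes them from succinate and is also an enzyme of the tricarboxylic acid (TCA) cycle, complex III passes them to cytochrome c, and complex IV hands them to oxygen. Complexes I, III and IV pump protons, and complex V, ATP synthase, lets the protons back to make ATP. Except in complex II, whose subunits are all nuclear, nuclear-encoded subunits must be assembled with subunits that are encoded by the mitochondrial genome.

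Each group held 3 libraries. The D-2 group was Saos-2 grown as a flat (2D) culture, D-3 was the same cells in Matrigel, a basement-membrane gel, and DP-3 was cells printed in a bioink of methacrylated gelatin and alginate, all cultured to day 14. A further DP-3 group was taken at day 1. The FIT group was fresh tumor tissue from Saos-2 cells injected with Matrigel under the skin of the axilla of 4-week-old female BALB/c nude mice, which lack a functional thymus, and taken at week 2. The IT group was pieces of such tumors cultured on Matrigel to day 14. All groups carried the same wild-type genotype label, and the cell line is spelled Soas-2 in the labels. IT and FIT pieces came from the same excised tumors, but the labels do not tie an IT library to a FIT library, and they do not say whether replicates came from separate cultures, so p-values measure only the spread between these samples. FIT and IT tissue grew in mice and could hold mouse cells, and a separation of mouse reads is not given in the sources used here. In bulk RNA, fewer cells of a type and less RNA per cell cannot be told apart.

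Total estimated counts ranged from 50327345 to 79082786 per library, except for FIT replicate 3 with 23721666. The genes of the mitochondrial genome took a share of summed FPKM of 23.0% to 24.7% in FIT, 18.7% to 25.2% in IT, 18.9% to 19.1% in DP-3 at day 1, 11.97% to 16.6% in D-3 and 9.85% to 16.98% in D-2. In DP-3 at day 14 they took 17.7%, 18.5% and, in replicate 3, 34.0%, so this library stood apart. The 3 DP-3 day 1 libraries were unusually alike. Over the 105 most abundant genes the median SD of log2 FPKM between them was 0.0247, against 0.0704 to 0.259 in the other groups, although their counts still differed by more than sampling noise. They are used as 3 replicates below, and the count of members called is also given with the 3 summed into 1 library. Of 7 markers of the osteoblast lineage, the lineage that osteosarcoma belongs to, IBSP was listed at 0 in all groups but DP-3 at day 1, and ALPL and SP7 had group means under 0.1 FPKM. The group mean of COL1A1 was 20.3 FPKM in FIT and 1.89 to 6.38 FPKM in the other groups. Summed skeletal muscle markers reached 1.01 to 5.55 FPKM in FIT and 0.0153 to 0.239 FPKM in D-2.

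Most subunit genes were well expressed. A mean of at least 1 FPKM over the 18 libraries was reached by 80 of the 88, and 74 were among the 6653 nuclear protein-coding genes with a mean of at least 5 FPKM, called abundant coding genes below. FPKM counts fragments per kilobase of transcript, scaled to library size, so that levels can be compared between genes. The highest mean FPKM belonged in complex I to NDUFS5, a small accessory subunit (129 FPKM), in complex II to SDHD, a membrane anchor (38.3 FPKM), in complex III to UQCRH, the hinge protein (119 FPKM), in complex IV to COX8A (359 FPKM), and in complex V to ATP5F1B, the catalytic beta subunit (330 FPKM). The members of a complex were thus far from equal in transcript level. Among the core subunits of complex I, which carry out its electron transfer, NDUFS7 had group means of 5.04 to 6.38 FPKM and NDUFS1 of 7.53 to 9.61 FPKM, whereas NDUFV2 had group means of 40.8 to 67.7 FPKM.

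In the pairs analysed, the tissue-specific or hypoxia-linked form of a subunit lay far below the common form in every group. COX7A1, the form of heart and skeletal muscle, did not exceed 0.36 FPKM in any library and was listed at 0 in 8 of them, while COX7A2 had group means of 24.9 to 44.2 FPKM. COX6B2, COX7B2 and COX8C, forms known from testis, stayed at or below 0.432, 0.0499 and 0.223 FPKM. Their partners COX6B1, COX7B and COX8A had group means of 37.6 to 47.2, 26.5 to 44.0 and 265 to 411 FPKM. NDUFA4L2, which is known as a target of hypoxia-inducible factor, stayed at or below 0.288 FPKM in all 18 libraries, gels and tumors included, while NDUFA4 had group means of 16.1 to 22.7 FPKM. COX4I1 had group means of 24.8 to 32.1 FPKM, and COX7A2L, a relative of COX7A2 that takes part in supercomplexes, 5.91 to 9.08 FPKM. The 3 genes for the same c subunit of the ATP synthase rotor were all in use, with group means of 18.4 to 26.9 FPKM for ATP5MC1, 16.5 to 22.7 FPKM for ATP5MC2 and 12.1 to 21.6 FPKM for ATP5MC3. UQCRHL, an intronless near copy of UQCRH, had group means of 2.77 to 4.60 FPKM, and its reads may be shared with UQCRH. Its values and those of the readthrough transcripts are therefore uncertain. ATP5MGL was listed at 0 in 15 libraries.

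**Figure D1:**
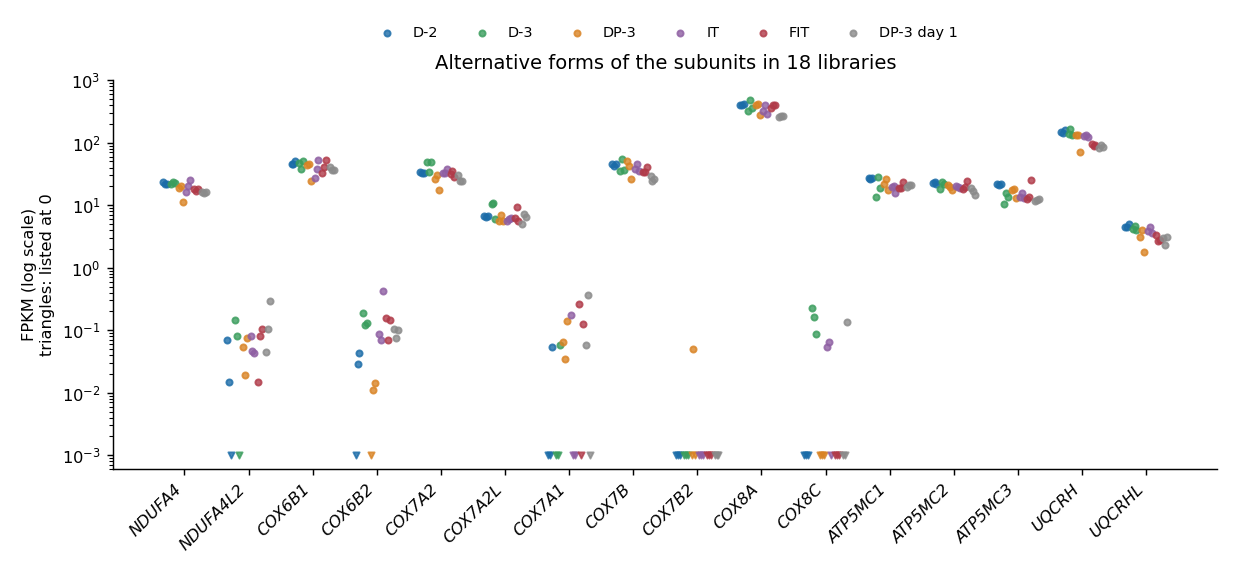
FPKM (log scale) of alternative forms of the same subunit in 18 libraries, coloured by group; a triangle marks a library in which the gene is listed at 0. The less common forms NDUFA4L2, COX6B2, COX7A1, COX7B2 and COX8C lie below 0.5 FPKM in all libraries, and their common partners above 10 FPKM.

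The first comparison asked how far the flat culture was from the fresh tumor. In D-2, 46 of the 81 members tested were higher than in FIT (edgeR's quasi-likelihood test on the 6 libraries, Benjamini-Hochberg adjusted p below 0.05 over all genes tested, used throughout), and the median log2 fold change of the 81 was 0.42. Of all 19513 genes tested, 16.0% were called higher and 14.9% lower, with a median log2 fold change of -0.09. The members called higher were 18 of 36 in complex I, 4 of 4 in complex II, 8 of 9 in complex III, 5 of 12 in complex IV and 11 of 18 in complex V. The changes were small: no called member reached the 2-fold difference used to define DEGs, while 14.6% of all genes were called with such a difference. The uncalled NDUFC2-KCTD14 (1.17, SE 0.54, adjusted p = 0.144) and NDUFA6-DT (-1.10, SE 0.38, adjusted p = 0.0636) lay beyond it. In 45 of the 46, each D-2 library lay above each FIT library in FPKM. The exception was ATP5PD, a stator subunit of complex V. Of all 88 members, 48 lay wholly above FIT and 3 wholly below. The shares were 35.4% and 21.1% of abundant coding genes, and 18.9% and 31.0% of all genes tested. Of the 74 members among the abundant coding genes, 44 (59.5%) were higher.

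All subunits of complex II were higher in D-2. SDHB, the iron-sulfur subunit, had 41.9, 41.5 and 42.9 FPKM in the D-2 libraries and 25.9, 27.7 and 28.8 FPKM in the FIT libraries. The log2 fold change was 0.77 (SE 0.09, adjusted p = 0.00263 by edgeR). SDHD had 51.5, 49.1 and 47.7 FPKM in D-2 against 34.2, 27.7 and 35.3 FPKM in FIT, a log2 fold change of 0.77 (SE 0.10, adjusted p = 0.00332). The groups did not overlap in either gene. SDHA, the flavoprotein, rose by 0.64 (SE 0.12) and SDHC, the other membrane anchor, by 0.54 (SE 0.09) on the log2 scale. Summed over its 4 genes, complex II had 127 ± 2.87 FPKM (SD, n = 3) in D-2 and 85.9 ± 6.91 FPKM in FIT.

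Complex III had the member with the smallest adjusted p. UQCRH had 150, 145 and 157 FPKM in D-2 and 96.7, 88.7 and 91.9 FPKM in FIT, a log2 fold change of 0.86 (SE 0.08, adjusted p = 0.00185). UQCRFS1, the Rieske iron-sulfur protein, had 38.8, 38.4 and 37.7 FPKM in D-2 and 24.7, 26.2 and 22.7 FPKM in FIT, a log2 fold change of 0.79 (SE 0.10). In complex V the largest rise was that of ATP5F1B, with 431, 455 and 448 FPKM in D-2 against 218, 270 and 315 FPKM in FIT (log2 fold change 0.89, SE 0.15, adjusted p = 0.00636). Its FIT libraries differed widely among themselves, but each was below the D-2 libraries. ATP5PB, the b subunit of the stator, rose by 0.83 (SE 0.12) and ATP5F1C, the gamma subunit of the central stalk, by 0.75 (SE 0.09). ATP5IF1, the inhibitor that binds ATP synthase when the proton gradient fails, had a log2 fold change of 0.08 (SE 0.10, adjusted p = 0.594). Of the c subunit genes, ATP5MC1 rose by 0.56 (SE 0.11), while ATP5MC2 (0.28, SE 0.12) and ATP5MC3 (0.50, SE 0.25) did not pass.

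Within complex I the change was uneven. The largest rise was that of NDUFA8, an accessory subunit, with 55.4, 49.6 and 52.0 FPKM in D-2 and 29.4, 30.6 and 36.8 FPKM in FIT (log2 fold change 0.85, SE 0.12, adjusted p = 0.00399). Among the core subunits, NDUFS1, NDUFS3 and NDUFV2 were higher, by 0.45, 0.47 and 0.44 on the log2 scale. NDUFS7, NDUFS8 and NDUFV1 were not called, with log2 fold changes of 0.09 (SE 0.16), 0.08 (SE 0.18) and -0.13 (SE 0.17). Complex IV had the smallest median, a log2 fold change of 0.31 over its 12 tested genes. COX8A, its most abundant member, had 407, 408 and 419 FPKM in D-2 and 361, 405 and 404 FPKM in FIT (log2 fold change 0.23, SE 0.10, adjusted p = 0.117). NDUFA4, by contrast, rose by 0.50 (SE 0.09).

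**Figure D2:**
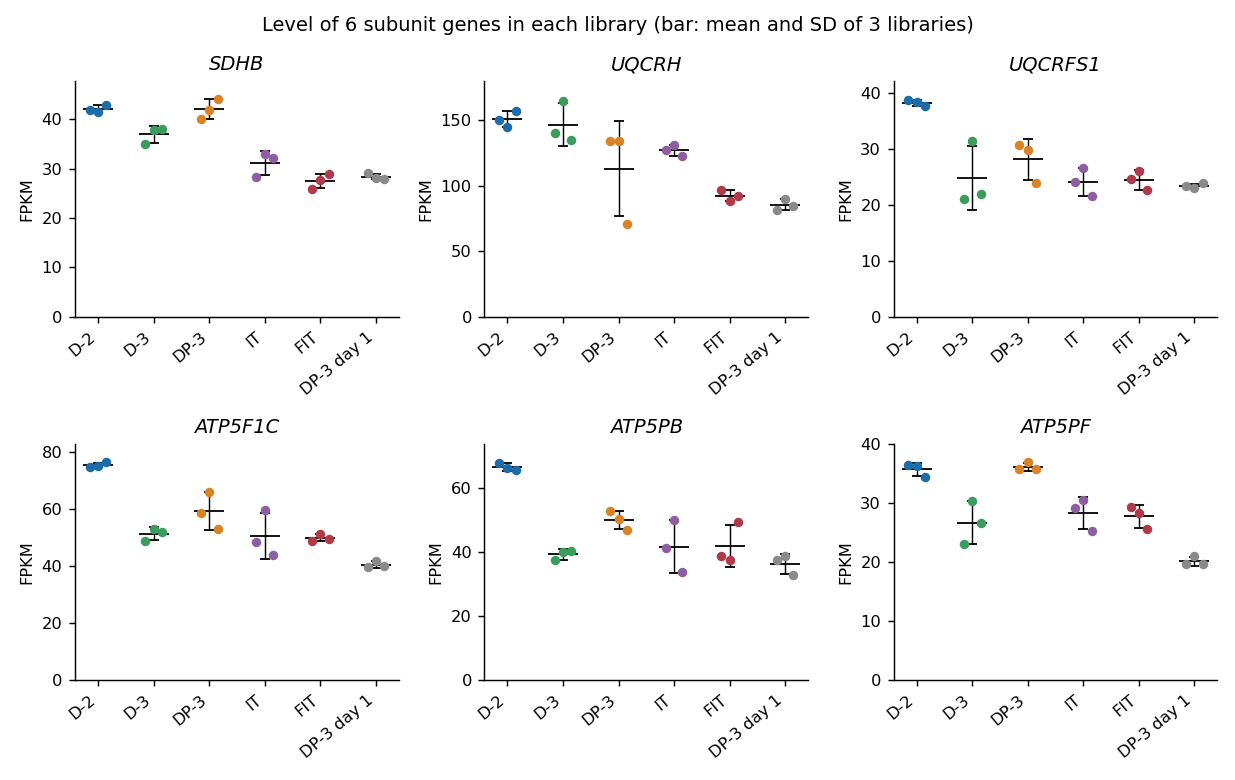
FPKM of 6 subunit genes in each library, by group, with the mean and SD of 3 libraries as bars. For SDHB, UQCRFS1, ATP5F1C and ATP5PB all D-2 libraries lie above all FIT libraries, and for ATP5PF the DP-3 libraries at day 14 (35.8 to 37.0 FPKM) lie far above those at day 1 (19.6 to 21.0 FPKM).

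The scaling of the libraries bears on this result. Abundant coding genes as a class were higher in D-2 than in FIT, with a median log2 fold change of 0.25 and 33.9% of 6652 called higher. D-2 libraries had 17716 to 18109 genes at 0.1 FPKM or more and FIT libraries 19969 to 21750. Nuclear coding genes with a mean of 100 FPKM and above had a median of 0.47 over 264 genes, beside 0.61 over the 5 members at that level, and those with a mean of 20 to 100 FPKM had 0.38 over 1627 genes, beside 0.46 over 41 members. When the scaling factors were taken from the abundant coding genes alone, 19 members remained higher, 16.3% of abundant coding genes were higher and 19.1% lower, and the noncoding NDUFA6-DT was called lower. The share of higher among all calls then went from 51.8% to 25.6%. The members called higher under both scalings included SDHA, SDHB, SDHC and SDHD of complex II, UQCRH and UQCRFS1 of complex III, ATP5F1B, ATP5F1C, ATP5PB, ATP5MF and ATP5MG of complex V, COX5A of complex IV, and NDUFA5, NDUFA8, NDUFA9, NDUFB3, NDUFC2 and NDUFS5 of complex I. The medians by complex were then 0.12, 0.44, 0.26, 0.05 and 0.24 for complexes I to V, against 0.38, 0.70, 0.52, 0.31 and 0.50 before. Without the genes of the mitochondrial genome, whose share of FPKM was higher in FIT, the count of members called was again 46. Of 5 endothelial markers 3 were tested and all 3 were lower in D-2 (median log2 fold change -2.13). Their summed level was 1.54 to 1.73 FPKM in D-2 and 3.82 to 6.08 FPKM in FIT, and none was at 0 in either group. Of 10 skeletal muscle markers 1 was tested and it was not called (-3.48, adjusted p = 0.0829), and 6 were at 0 in D-2 and 1 in FIT. PECAM1 alone had a group mean of 1.46 FPKM in D-2, the flat Saos-2 culture, and 3.59 FPKM in FIT. Other lists went the other way or did not pass. Of 5 macrophage markers 2 were tested and 1 was higher in D-2. Of 5 adipocyte markers 1 was tested and it was higher in D-2, and of 4 fibroblast markers 3 were tested and 0 were called. The part of other cell types and of the number of genes detected in the result was not tested.

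**Figure D3:**
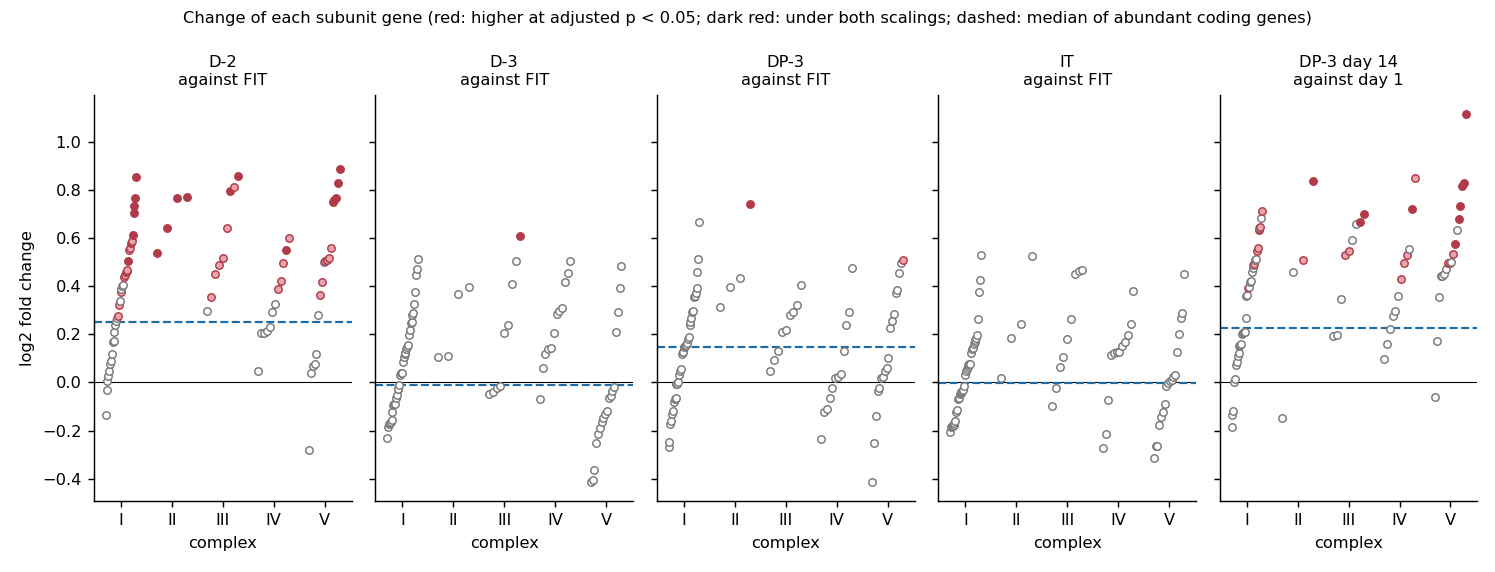
Log2 fold change (edgeR) of each subunit gene with a mean of at least 1 FPKM, by complex, in 5 comparisons; red marks genes called higher, dark red those also called higher with scaling from abundant coding genes, and the dashed line is the median of the abundant coding genes. In D-2 against FIT most points lie above the line (median of members 0.42, line at 0.25), while in D-3 and IT against FIT they scatter around 0.

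For 4 genes on which the results turned, the promoter window of RefSeq (GRCh38.p14, from 250 bases before to 50 bases after the start of the gene) is shown to let the reader see the letters known to be bound by factors of mitochondrial biogenesis. Capitals mark matches to the nuclear respiratory factor core CGCATGCG, the ETS (GABP) motif CCGGAAGT, the YY1 motif AAGATGGCG or the ERR motif TCAAGGTCA, searched on both strands, and no matches overlapped. UQCRH, at chr1:46303448-46303747 on the plus strand, held an ETS match. SDHB, at chr1:17053983-17054282 on the minus strand, held a YY1 match. ATP5PF, at chr21:25735005-25735304 on the minus strand, held a nuclear respiratory factor and a YY1 match in the nearer of its 2 windows. ATP5F1C, at chr10:7787927-7788226 on the plus strand, held a nuclear respiratory factor match.
UQCRH: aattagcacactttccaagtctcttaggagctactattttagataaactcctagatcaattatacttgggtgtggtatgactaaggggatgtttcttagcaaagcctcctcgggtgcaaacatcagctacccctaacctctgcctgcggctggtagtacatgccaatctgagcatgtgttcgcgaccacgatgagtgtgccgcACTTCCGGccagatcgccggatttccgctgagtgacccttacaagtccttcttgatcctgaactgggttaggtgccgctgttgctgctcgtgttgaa
SDHB: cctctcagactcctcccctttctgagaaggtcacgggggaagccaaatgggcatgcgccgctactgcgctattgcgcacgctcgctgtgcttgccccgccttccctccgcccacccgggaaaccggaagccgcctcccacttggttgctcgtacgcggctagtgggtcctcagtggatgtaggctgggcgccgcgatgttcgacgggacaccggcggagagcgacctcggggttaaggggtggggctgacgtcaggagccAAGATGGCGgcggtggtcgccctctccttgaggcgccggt
ATP5PF: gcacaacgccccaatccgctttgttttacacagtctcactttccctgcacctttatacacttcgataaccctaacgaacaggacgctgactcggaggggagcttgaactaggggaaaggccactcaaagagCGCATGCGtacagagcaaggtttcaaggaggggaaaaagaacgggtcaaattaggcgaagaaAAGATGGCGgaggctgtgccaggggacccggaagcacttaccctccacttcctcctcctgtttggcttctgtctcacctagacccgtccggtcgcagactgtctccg
ATP5F1C: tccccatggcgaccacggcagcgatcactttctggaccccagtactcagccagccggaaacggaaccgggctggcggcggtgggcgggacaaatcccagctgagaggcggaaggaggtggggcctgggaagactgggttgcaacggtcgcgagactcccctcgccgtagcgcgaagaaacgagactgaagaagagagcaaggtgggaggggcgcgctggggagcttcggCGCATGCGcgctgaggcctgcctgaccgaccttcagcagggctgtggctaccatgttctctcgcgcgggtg
Of the 88 members, 72 had a window. The nuclear respiratory factor core was in 13.9% of these and in 2.02% of all 35116 windows, the ETS motif in 13.9% and 4.14%, the YY1 motif in 13.9% and 1.75%, and the ERR motif in 1.39% and 0.353%. The core of the hypoxia response element, ACGTG, was in 25.0% and 21.4%. The 35116 windows include several for some genes and were not limited to expressed or coding genes, whereas each member gave 1 window. The shares are therefore not like for like. Some member windows lay far from the deposited gene start, that of COX7A2L by 56131 bases. A match describes the letters and not binding.

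The second question was which of the 3D settings lay near the fresh tumor. In D-3, 1 of 82 members, UQCRH, was higher than in FIT (140, 165 and 135 FPKM against 96.7, 88.7 and 91.9 FPKM, log2 fold change 0.61, SE 0.14, adjusted p = 0.0411), where 5.11% of all genes and 5.13% of abundant coding genes were higher. Its groups did not overlap, but the call was lost when any of the 6 libraries was left out. In FPKM, 24 of the 88 members lay wholly above FIT and 2 wholly below. The shares were 22.1% and 14.4% of abundant coding genes, and 20.5% and 11.9% of all genes tested. The complexes leaned different ways without passing the test. Complex V had a median log2 fold change of -0.12, with ATP5PD at 0.48 (SE 0.14, adjusted p = 0.0758), ATP5F1A at -0.36 (SE 0.15, adjusted p = 0.178) and ATP5MC3 at -0.42 (SE 0.27, adjusted p = 0.392), and complex IV one of 0.21, with COX5A at 0.50 (SE 0.19, adjusted p = 0.136).

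In DP-3 at day 14, 2 of 83 members were higher than in FIT, where 4.21% of all genes and 8.04% of abundant coding genes were higher. SDHB had 39.99, 41.9 and 44.1 FPKM in DP-3, a log2 fold change of 0.74 (SE 0.14, adjusted p = 0.0243), and was also called with the other scaling. ATP5PF, a stator subunit of complex V known as coupling factor 6, had 35.8, 37.0 and 35.8 FPKM in DP-3 and 29.4, 28.3 and 25.6 FPKM in FIT, a log2 fold change of 0.51 (SE 0.13, adjusted p = 0.0482). Neither group overlapped with FIT. Replicate 3 of DP-3, the library with the high mitochondrial share, was low in the median of the members, and had 71.1 FPKM for UQCRH against 134 FPKM in each of the other two, although it was the highest of the 3 for SDHB. The median log2 fold change of the members was 0.13, -0.03 with scaling from abundant coding genes and -0.01 with limma, so its direction was not stable. Without replicate 3 it was 0.29 and no member was called by edgeR. An unadjusted p below 0.05 was then reached by 31 of 81 members, 2209 of 6652 abundant coding genes and 4862 of all 19418 genes tested.

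Between IT and FIT, 0 of 83 members and 0% of all 21183 genes were called by edgeR. Of the members, 7 had an unadjusted p below 0.05, DESeq2 called 2 higher and limma called 0. The matching shares of all genes are not given here, so these counts do not set the members apart from other genes. The largest log2 fold changes among well expressed members were 0.53 (SE 0.16, adjusted p = 0.263) for NDUFA8 and 0.52 (SE 0.16, adjusted p = 0.269) for SDHA, and the smallest were -0.31 (SE 0.18) for ATP5MF and -0.27 (SE 0.24) for COX7A2L. NDUFA8 had 46.6, 46.5 and 46.4 FPKM in IT and SDHA 20.2, 20.5 and 24.1 FPKM, above the FIT libraries in both cases (13.1 to 17.4 FPKM for SDHA). The spread between replicates in this comparison, a biological coefficient of variation of 43.7%, was the largest of all pairwise comparisons.

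The third comparison followed the printed tissue over time. From day 1 to day 14, 27 of 81 members rose in DP-3, with a median log2 fold change of 0.45, where 12.2% of all genes were higher and 9.91% lower. The share among abundant coding genes was 29.5%, beside 27 of 74 (36.5%) for the members in that class, whose median was 0.47 against 0.23 for the class. The calls were 7 of 36 in complex I, 2 of 4 in complex II, 4 of 9 in complex III, 5 of 12 in complex IV and 9 of 18 in complex V.

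ATP5PF was the only member called with a 2-fold difference, as 7.56% of all genes were. It rose from 19.7, 21.0 and 19.6 FPKM at day 1 to 35.8, 37.0 and 35.8 FPKM at day 14 (log2 fold change 1.12, SE 0.08, adjusted p = 0.00141). ATP5F1C rose from 39.5, 41.8 and 39.9 FPKM to 58.6, 66.1 and 53.0 FPKM (0.82, SE 0.09, adjusted p = 0.00231), and ATP5MF, a membrane subunit, from 13.8, 15.7 and 15.0 FPKM to 25.2, 22.6 and 18.1 FPKM (0.83, SE 0.12, adjusted p = 0.00536). In all of these the days did not overlap. COX7B, a small subunit of complex IV, rose by 0.85 (SE 0.21), but its replicate 3 at day 14 (26.6 FPKM) lay within the day 1 range. COX8A rose from 261, 271 and 263 FPKM to 401, 412 and 281 FPKM (0.72, SE 0.13, adjusted p = 0.00949).

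Of the 4 genes of complex II, 2 were called higher over time, SDHB and SDHD. SDHD rose by 0.51 (adjusted p = 0.0208), but its replicate 3 at day 14 (32.5 FPKM) lay within the day 1 range. SDHC was not called (0.46, adjusted p = 0.103). SDHB rose from 29.02, 28.2 and 27.9 FPKM to 39.99, 41.9 and 44.1 FPKM (0.84, SE 0.09, adjusted p = 0.00245). SDHA went from 23.0, 23.1 and 22.5 FPKM to 20.2, 17.1 and 14.3 FPKM and was not called (-0.15, SE 0.11, adjusted p = 0.399). The days did not overlap in SDHB or in SDHA. With scaling from abundant coding genes SDHA was called lower (-0.37, adjusted p = 0.049), and it was called in 1 of 18 alternatives. Of the core subunits of complex I, NDUFV2 rose (0.63, SE 0.12), while NDUFV1 (-0.19, SE 0.23), NDUFS1 (0.15, SE 0.09) and NDUFS7 (0.21, SE 0.14) were not called. With that scaling 11 members remained higher (ATP5F1A, ATP5F1C, ATP5MC3, ATP5MF, ATP5PB, ATP5PF, COX8A, NDUFV2, SDHB, UQCR10 and UQCRB), beside 13.5% of abundant coding genes higher and 15.5% lower.

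This comparison rests on libraries that stand apart. With the 3 alike day 1 libraries summed into 1, edgeR called no member, and the adjusted p of ATP5PF, ATP5F1C and SDHB was 0.214. With limma on log2(FPKM + 0.1), 5 members were called. Without DP-3 replicate 3, 50 of 81 members rose, beside 37.0% of abundant coding genes, and without DP-3 day 1 replicate 2, 10 rose. In FPKM, 11 of the 88 members had day 14 libraries wholly above the day 1 libraries, all of them among the 27. Another 6 had them wholly below. The shares were 21.1% and 29.1% of abundant coding genes, and 9.96% and 35.2% of all genes tested.

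**Figure D4:**
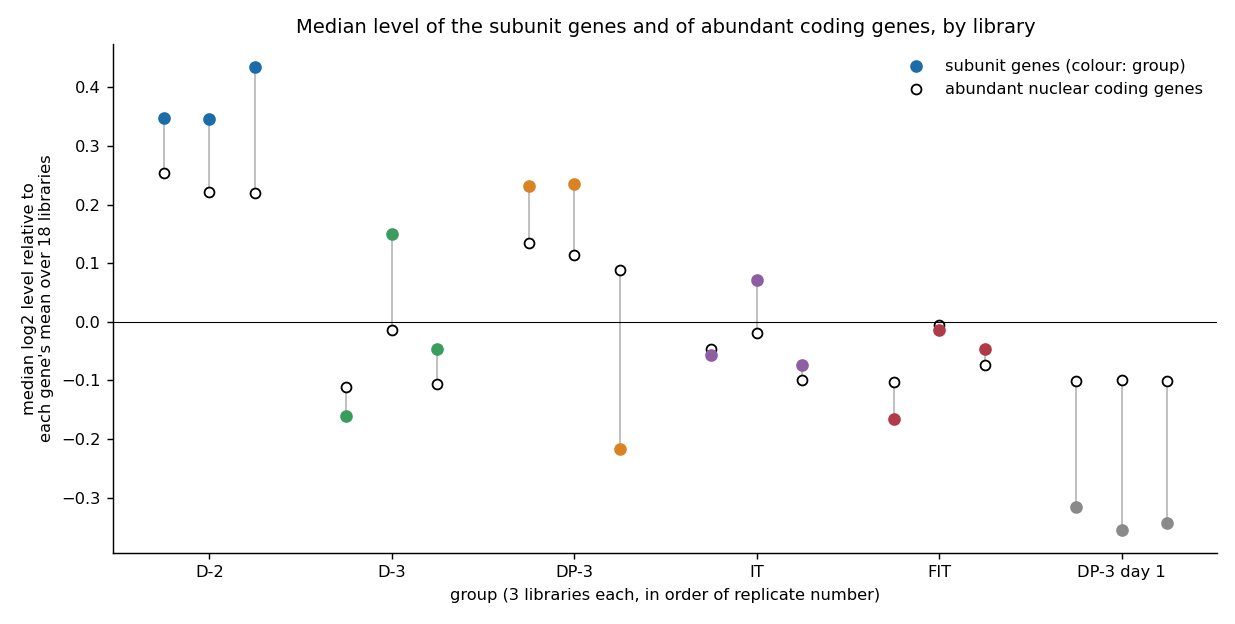
Median log2 level, relative to each gene's mean over the 18 libraries, of 80 subunit genes (filled) and of the abundant coding genes (open) in each library. D-2 libraries lie highest (0.35 to 0.43) and DP-3 day 1 libraries lowest (-0.35 to -0.32), and DP-3 replicate 3 at day 14 lies at -0.22 with the abundant coding genes at 0.09.

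By library, the median log2 level of the members relative to each gene's mean was 0.35, 0.35 and 0.43 in D-2, -0.16, 0.15 and -0.05 in D-3, 0.23, 0.24 and -0.22 in DP-3 at day 14, -0.06, 0.07 and -0.07 in IT, -0.17, -0.01 and -0.05 in FIT and -0.32, -0.35 and -0.34 in DP-3 at day 1. D-2 was highest and DP-3 at day 1 lowest without overlap with other groups, and the ranges of D-3, IT and FIT overlapped. The members' median minus that of the abundant coding genes was 0.09 to 0.22 in D-2, and D-3 replicate 2 (0.16) and DP-3 replicates 1 and 2 (0.10 and 0.12) lay within that range. It was -0.05 to 0.16 in D-3, -0.01 to 0.09 in IT, -0.06 to 0.03 in FIT, -0.25 to -0.21 in DP-3 at day 1 and -0.31 in DP-3 replicate 3.

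**Figure D5:**
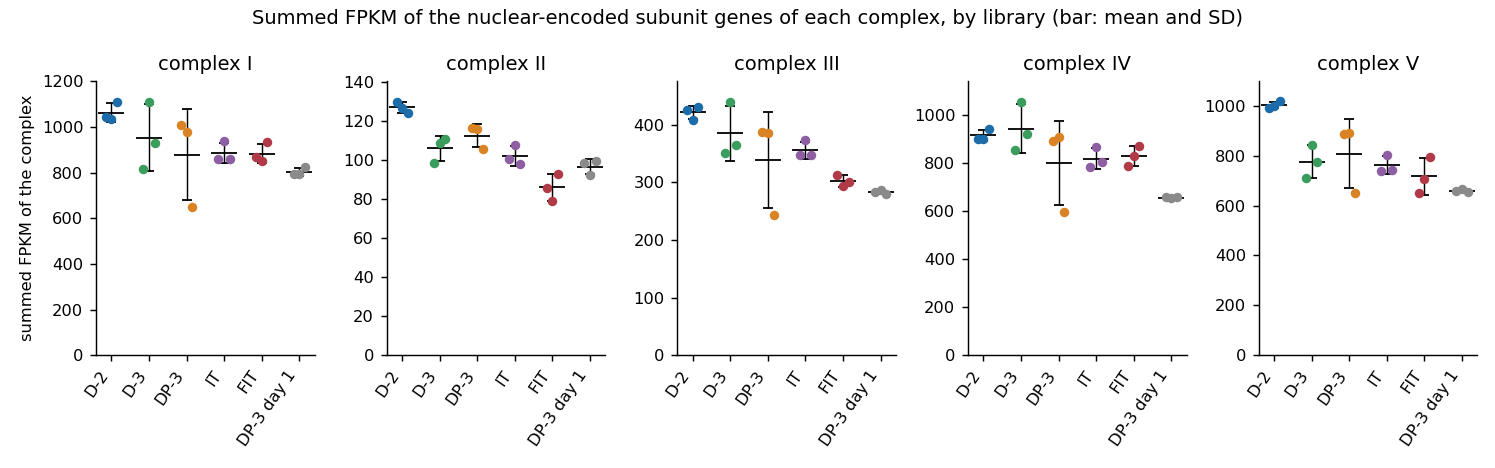
Summed FPKM of the nuclear-encoded subunit genes of each complex in each library, with the mean and SD of 3 libraries as bars. Complex V sums to 1004 ± 13.5 FPKM in D-2 and 660 ± 6.38 FPKM in DP-3 at day 1, and complex II is lowest in FIT (85.9 ± 6.91 FPKM).

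Because the members' median level was highest in D-2, this group was also compared with the other cultures. These comparisons were chosen after the calls against FIT were seen, and all share the D-2 libraries. In D-2 against D-3, 29 of 82 members were higher, where 16.3% of all genes and 36.5% of abundant coding genes were. Of the 74 members in that class 28 (37.8%) were higher. By complex, 13 of 36, 3 of 4, 3 of 9, 0 of 13 and 10 of 18 were higher in complexes I to V. ATP5PB had 68.1, 66.4 and 65.8 FPKM in D-2 and 37.5, 40.1 and 40.4 FPKM in D-3 (log2 fold change 1.02, SE 0.09, adjusted p = 0.00134). ATP5MF (0.97, SE 0.27), ATP5MC3 (0.96, SE 0.15) and ATP5F1A (0.91, SE 0.11) followed among those called. With scaling from abundant coding genes 11 members were higher and ATP5PD, COX6A1, NDUFB5 and NDUFS7 were lower. Leaving out D-3 replicate 2 gave 45 called members, and leaving out any of the other 5 libraries gave 15 to 18. For the second scaling and for single libraries left out, shares of other genes are not given against D-3 or IT. Those counts therefore show how stable the calls were, and not whether the members differed from other genes. In D-2 against IT, 29 of 81 were higher, where 11.6% of all genes and 26.0% of abundant coding genes were. ATP5MF had 27.5, 24.9 and 27.4 FPKM in D-2 and 13.4, 15.7 and 12.8 FPKM in IT (1.09, SE 0.13, adjusted p = 0.00752). ATP5PB (0.84, SE 0.16), UQCRFS1 (0.83, SE 0.12) and ATP5MC3 (0.78, SE 0.12) came next. Leaving out a D-2 library gave 2, 3 or 5 called members, and leaving out IT replicate 1 gave 11. In D-2 against DP-3 only ATP5PB was called (0.44, SE 0.08, adjusted p = 0.0403), 1 of 81, where 0.992% of all genes and 1.86% of abundant coding genes were higher. Without DP-3 replicate 3, 4 of 81 members were higher, beside 2.22% of all genes and 4.54% of abundant coding genes. Without any other library 0 were called by edgeR.

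Across all 6 groups, 51 of 86 members (59.3%) differed (edgeR F-test on 18 libraries), where 37.3% of all genes and 63.5% of abundant coding genes did. By complex the counts were 17 of 36, 4 of 4, 8 of 9, 8 of 16 and 13 of 18 for complexes I to V. The 4 smallest adjusted p belonged to ATP5F1C (4.06e-05), ATP5PF (4.11e-05), SDHB (4.21e-05) and ATP5PB (8.09e-05), 3 stalk or stator subunits of ATP synthase and the iron-sulfur subunit of complex II.

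Genes that work with the subunits were described from lists kept apart from them. For reference, 16.0% of all genes and 33.9% of abundant coding genes were higher in D-2 than in FIT. Over time in DP-3, 12.2% and 29.5% rose. With scaling from abundant coding genes, 16.3% of that class were higher in D-2 and 13.5% rose over time in DP-3. Of 78 mitochondrial ribosomal protein genes, which serve the translation of the mitochondrially encoded subunits, 53 were higher in D-2 than in FIT (median log2 fold change 0.60) and 36 rose in DP-3 over time (median 0.51). With scaling from abundant coding genes these counts were 31 and 14. MRPL19 (1.29) and MRPL1 (1.21) had the largest rises against FIT, 9.11 against 4.14 FPKM for MRPL19. Of 47 assembly factors 20 were higher in D-2, led by NDUFAF2 of complex I (1.13) and COA6 of complex IV (0.99), and 10 rose in DP-3 over time, led by COX20 (1.37) and the complex II factor SDHAF3 (1.02), while TTC19 of complex III fell by 0.69. Of 13 TCA cycle enzymes 9 were higher in D-2, among them SUCLG1 (1.08), DLD (0.91) and FH (0.90). Over time in DP-3, 8 rose, among them CS (0.76), and 1 was lower. With scaling from abundant coding genes, 11 assembly factors and 6 TCA cycle enzymes were higher in D-2, and 4 and 1 were lower. Over time in DP-3, 4 assembly factors and 3 TCA cycle enzymes were then higher, and 2 and 1 were lower. Among 16 further subunits and carriers 9 were higher in D-2 and 2 lower, with CYCS, cytochrome c, at 54.7 against 29.9 FPKM (1.02) and COQ4 at 6.31 against 11.2 FPKM (-0.67). Over time in DP-3, 3 of these 16 rose and 0 fell. With scaling from abundant coding genes, 7 were higher and 2 lower in D-2, and 1 was higher and 3 lower over time in DP-3.

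Of the 12 tested regulators of mitochondrial biogenesis, 3 were higher in D-2 than in FIT, beside 16.0% of all genes and 33.9% of abundant coding genes: TFAM, which packages and transcribes the mitochondrial genome (0.71, 14.9 against 10.1 FPKM), TFB2M (0.69) and GABPB1 (0.56). With scaling from abundant coding genes only TFAM was called. In DP-3 over time 4 of the 12 rose, beside 12.2% of all genes and 29.5% of abundant coding genes. They were TFB2M (0.75), TFAM (0.73), GABPB1 (0.51) and GABPA (0.42), and TFB2M and TFAM were called under both scalings. The median log2 fold change of the 12 was 0.29, and 0.07 with scaling from abundant coding genes. The coactivator PPARGC1A was low in D-2 and FIT (0.211 and 0.355 FPKM). Of the 13 subunits encoded by the mitochondrial genome itself, none had a log2 fold change above 0 in D-2 against FIT, and the median was -0.64, opposite in sign to that of the nuclear members. MT-ATP8 (-1.30), MT-ATP6 (-1.12) and MT-CO3 (-1.04) were called lower, and with scaling from abundant coding genes 8 of the 13 were. The fall was not particular to D-2. In D-3 against FIT, 0 of the 13 had a log2 fold change above 0, 3 were called lower and the median was -0.65. The median of the nuclear members was 0.09 there. MT-ATP8 and MT-ATP6 overlap on the same strand, so their values are uncertain. In DP-3 over time 12 of the 13 had a log2 fold change above 0, MT-CO3 (1.73) and MT-ND3 (1.41) were called higher, and MT-ATP6 (-1.45) was called lower. The share of mitochondrial genes in summed FPKM was 18.9% to 19.1% at day 1. At day 14 it was 17.7%, 18.5% and, in replicate 3, 34.0%, so only replicate 3 lay above day 1. Of 20 tested genes of glycolysis and the hypoxia response, 6 (beside 33.9% of abundant coding genes) were higher in D-2, among them LDHA (0.80) and PGK1 (0.51), and 2 were lower, VEGFA (-1.83) and ANKRD37 (-1.47). With scaling from abundant coding genes 3 were higher and 3 lower.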

How the data were processed

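Poly(A) RNA of 18 libraries was sequenced with a stranded (dUTP), paired-end protocol. Per the labels, the authors used cutadapt 1.9, HISAT2 2.0.4, StringTie 1.3.4d, DESeq2 and edgeR; the genome build and annotation are not given in the sources used here. The deposited table holds the authors' estimated counts and FPKM values per gene, in which FPKM is scaled by transcript length and library size, so that a few very abundant genes lower all others. A separation of mouse reads is not given in the sources used here.

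Counts were rounded and tested with edgeR 4.0.16 (R 4.3.3; TMM scaling, quasi-likelihood test, genes with at least 0.1 FPKM in 3 libraries, each comparison fitted on its own 6 libraries), with Benjamini-Hochberg adjustment over all genes tested. A gene was called at an adjusted p below 0.05. FPKM values served for levels only. An exact permutation test of 3 against 3 libraries cannot go below 0.1, so none was used. Alternatives were DESeq2 1.42.0, limma 3.58.1 on log2(FPKM + 0.1) and log2(FPKM + 1), other scalings and filters, and each library left out. Scaling from abundant coding genes, a transcript length offset, the summed day 1 libraries and the comparisons of D-2 with the other cultures were added after seeing the data. The scripts were tested on simulated data.

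The members and gene lists were chosen with earlier results of these data known. Members named were the most abundant of each complex, the alternative forms, ATP5IF1, complex II, the core of complex I, up to 4 called members with the largest change in each comparison (values only where none was called) and the 4 with the smallest adjusted p over the 6 groups. UQCRFS1, ATP5PD, COX5A and ATP5F1A, where named outside this rule, were chosen after their values were seen. Some genes that the rule or the lists hold are not reported here. Replicate numbers did not pair the samples: over 24 pairs of same-numbered samples in the compared groups, deviations from the group means correlated at -0.0511 to 0.112.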

Additional observations from a re-analysis of the deposited data

How the results depend on the processing

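The numbers of members called in D-2 against FIT (46), in DP-3 over time (27), in D-2 against D-3 (29), in D-2 against IT (29) and over the 6 groups (51) stayed within 1.5 times under median-of-ratios scaling, without the mitochondrial genes, without a filter, with DESeq2 and with the length offset. No called value of a named member reversed, but the median of the members in DP-3 against FIT went from 0.13 to -0.03 with scaling from abundant coding genes and -0.01 with limma. With scaling from abundant coding genes they were 20 (19 higher, 1 lower), 12 (11 higher, 1 lower), 15 (11 higher, 4 lower), 11 (10 higher, 1 lower) and 36, and DP-3 against FIT had 1 and D-2 against DP-3 had 0. Requiring a 2-fold difference left 0, 1, 1 and 1 in the first 4 and 0 in D-3 against FIT, DP-3 against FIT and D-2 against DP-3. Limma with pseudocounts of 0.1 and 1 called 5 and 5 over time in DP-3, 17 and 15 in D-2 against D-3, 12 and 11 in D-2 against IT, 31 and 31 over the 6 groups, 1 and 1 in DP-3 against FIT and 0 and 0 in D-2 against DP-3. An adjusted p below 0.01 left 30 over the 6 groups. An FPKM minimum of 1 gave 18 in D-2 against D-3, 17 in D-2 against IT and 1 in DP-3 against FIT. In D-3 against FIT (1 called) the count was 0 without a filter and with the length offset, 2 with DESeq2 and 6 in 1 fit of all libraries. In DP-3 against FIT (2 called) it was 1 without a filter, 5 with DESeq2 and 9 in that fit. In IT against FIT (0 called) DESeq2 and that fit each gave 2. In D-2 against DP-3 (1 called) it was 2 without the mitochondrial genes, 0 without a filter, 10 with DESeq2 and 0 in that fit. The DP-3 day 1 libraries summed into 1 gave 0. The cause was not tested.

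The labels' replicate numbers were not found to pair the samples. With the replicate number as a block, the counts were 37 in D-2 against FIT, 17 over time in DP-3, 11 in D-2 against IT, and 0 in D-3 against FIT, DP-3 against FIT and D-2 against DP-3.

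Leaving out 1 library at a time gave 31 to 51 in D-2 against FIT, 0 to 0 in D-3 against FIT, 0 to 1 in DP-3 against FIT, 0 to 0 in IT against FIT, 10 (without DP-3 day 1 replicate 2) to 50 (without DP-3 replicate 3) over time in DP-3, 15 (without D-2 replicate 3) to 45 (without D-3 replicate 2) in D-2 against D-3, 0 to 4 in D-2 against DP-3, 2 (without D-2 replicate 1) to 33 in D-2 against IT and 40 to 57 over the 6 groups. For single named members, 4108 of the values under these alternatives kept their direction and their side of the threshold, 298 lost the call, 62 gained one and 258 uncalled values changed sign. FIT replicate 3 had the lowest total count, and leaving it out gave the 51 calls in D-2 against FIT.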
